A study of Homo sapiens with 6 samples.

Results

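Homologous recombination and the Fanconi anaemia pathway repair DNA breaks and interstrand crosslinks that replication forks meet. In recombination, DNA ends are resected to single strands, BRCA1, PALB2 and BRCA2 help to coat them with a protein filament, and the filament searches for the intact sister copy. In the Fanconi pathway a core ubiquitin ligase with its conjugating enzyme UBE2T modifies the paired proteins FANCD2 and FANCI, which then recruit nucleases to the crosslink. Cells use both mainly in S and G2 phase, when a sister chromatid is at hand, and many of the genes are known targets of E2F factors.

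The genes described here are 35 of the 16832 symbols listed for each library. They are a named set of recombination, Fanconi, mismatch repair and replication checkpoint genes, selected here by symbol, and all 35 were listed. The set, its role groups and the comparison lists were chosen with earlier results of these data known. Shares set beside those of all genes are therefore descriptions and no independent support. By role they fall into 7 groups. BRCA1, BARD1 and BRIP1 form the first. BRCA2, PALB2, RAD51C, XRCC2, XRCC3, RAD51AP1, RAD54L and RAD54B act in filament assembly and strand invasion. FANCA, FANCB, FANCC, FANCE, FANCF, FANCG, FANCL, FANCM and UBE2T make up the core complex and its partners. FANCD2, FANCI and SLX4 act after it, EXO1, BLM, RMI1 and RMI2 resect ends or dissolve junctions, and ATM, ATR, CHEK1, CHEK2, CLSPN and TOPBP1 are checkpoint genes. MSH6 and POLQ belong to mismatch repair and end joining.

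RNA sequencing was done on U251, an established human glioma cell line that all 6 libraries share and whose genotype is labelled WT. In 3 libraries the cells had been incubated with SLCDS for 18 days. The labels do not spell out the components of SLCDS, and the series title calls the resulting cells neuronal-like. In the 3 control libraries the cells had received PBS in place of SLCDS, and no culture time is given for them, so time in culture and treatment cannot be told apart. The labels do not say whether replicates were separate cultures, so p-values measure only the spread between these libraries, which may be technical. Values are FPKM, fragments scaled by transcript length and library depth, which can be compared between genes as levels per length.

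Estimated depths were 16600000 to 17200000 fragments in SLCDS libraries and 16300000 to 17000000 in control libraries. Control replicate 3 stood apart from the other libraries. Its correlation across genes, which are not independent replicates, was 0.9765 and 0.9767 with the other controls, against 0.9969 between control replicates 1 and 2. Counts of called genes are therefore given with and without it. Single genes are given without it in part, and otherwise with all libraries only. The glioma and astrocyte markers, 12 of 12 listed, summed to 2635 to 2723 FPKM in SLCDS against 2782 to 3173 FPKM in control. Defining markers of other cell types were in part absent. PTPRC, ITGAM and CX3CR1 of microglia and blood, MBP and SOX10 of oligodendrocytes, VWF, TEK and CLDN5 of endothelium, DCN of fibroblasts and RBFOX3 and NEFM of neurons were under 0.1 FPKM. The summed FPKM of endothelial markers was 4.96 to 5.88 in SLCDS and 2.12 to 3.00 in control, of oligodendrocyte markers 62.6 to 64.5 in SLCDS and 87.5 to 99.0 in control, and of neuron markers 81.3 to 83.2 in SLCDS and 87.0 to 93.7 in control. For fibroblast and pericyte markers the sum was 422 to 430 FPKM in SLCDS and 427 to 458 in control, and for microglia and blood markers 31.1, 4.96 and 6.16 in SLCDS replicates 1 to 3 and 4.27 to 10.3 in control, so SLCDS replicate 1 alone was high. Sums give most weight to abundant genes, and the tested markers of a list did not all move with its sum. On the log2(FPKM + 1) scale, SLCDS minus control, 5 tested neuron markers lay between -0.40 and 0.31, with a median of 0.16. The 6 fibroblast and pericyte markers lay between -0.38 and 1.27 (median 0.07) and 4 oligodendrocyte markers between -1.49 and 0.59 (median 0.07). Without control replicate 3 these medians were 0.24, -0.02 and 0.23. The 10 tested glioma and astrocyte markers lay between -1.32 and 0.33, with a median of -0.20, and of -0.18 without control replicate 3. The 1 tested endothelial marker was at 1.02, and at 1.19 without control replicate 3. The part of these cell types in the results on repair genes was not tested.

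The promoters of 3 genes that rose in SLCDS, EXO1, RAD51AP1 and FANCD2, are shown because each holds a match to an E2F-like sequence, printed in capitals. Each line gives 170 bases of the + strand, from 150 bases before the annotated transcription start to 20 bases from the start onwards, from RefSeq on GRCh38.p14. They lie at chr1:241848054-241848223, chr12:4538740-4538909 and chr3:10026287-10026456.
EXO1: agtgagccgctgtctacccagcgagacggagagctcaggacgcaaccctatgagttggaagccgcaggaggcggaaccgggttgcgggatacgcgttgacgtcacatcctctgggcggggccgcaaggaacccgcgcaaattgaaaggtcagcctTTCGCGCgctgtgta
RAD51AP1: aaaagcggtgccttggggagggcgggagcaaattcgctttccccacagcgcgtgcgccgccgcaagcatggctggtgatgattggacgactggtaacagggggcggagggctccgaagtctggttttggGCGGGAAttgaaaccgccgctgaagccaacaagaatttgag
FANCD2: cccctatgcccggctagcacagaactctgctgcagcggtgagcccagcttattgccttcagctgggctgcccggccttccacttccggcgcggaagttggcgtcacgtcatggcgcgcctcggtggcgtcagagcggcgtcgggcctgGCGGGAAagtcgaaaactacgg
EXO1 has 2 annotated promoter windows, of which only the 1 printed held an E2F-like match. There the match lies on the + strand just after the start. In RAD51AP1 and FANCD2 it reads on the other strand, before the start in RAD51AP1 and across it in FANCD2. RefSeq promoter windows, from 250 bases before to 50 after the start, were at hand for 32 of the 35 genes, and 21 of the 32 had an E2F-like match (the letters TTCGCGC, or with other inner bases TTGGCGC, or also TTCCCGC, on either strand). Counted by window, 59.1% of the 44 windows of these genes held a match, against 16.6% of the windows of all tested genes and 11.0% of all 35116 windows. By gene, a match was present in 3 of 3 that rose and had a window and in 15 of 24 that were tested and did not pass. Of those below the expression filter 3 of 5 had a match. A gene with more windows has more chances of a match, and no share by gene was computed over all tested genes. The cell cycle element CHR (TTTGAA, or with a changed base TTCGAA, on either strand) was in 11.4% of the repair genes' windows and 11.8% of those of tested genes, and CCAAT, the NF-Y box, in 47.7% and 35%. A match is a run of letters and does not show that a factor binds there.

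Over all 6 libraries 4 repair genes rose in SLCDS and none fell, in a limma fit on log2(FPKM + 1) with Benjamini-Hochberg adjustment over all 11506 tested genes and an adjusted p under 0.05. The 4 were EXO1, FANCI, RAD51AP1 and FANCD2. They are 4 of the 30 repair genes that had at least 1 FPKM in 3 or more libraries, or 13.3%, where 4.28% of all tested genes were higher and 1.82% were lower in SLCDS. At an unadjusted p under 0.05 there were 8 higher and 0 lower, against a background of 10.8% and 7.81%. EXO1 reached 1 FPKM in all 3 SLCDS libraries and in 0 control libraries, so it entered the test only through the group where it was high. The other 3 genes that rose were above 1 FPKM in every library. In bulk RNA fewer cells with a transcript and less of it per cell cannot be told apart. The remaining 26 tested genes did not pass, and 5 genes (BRCA2, FANCB, BLM, CLSPN and POLQ) lay below the filter.

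**Figure D1:**
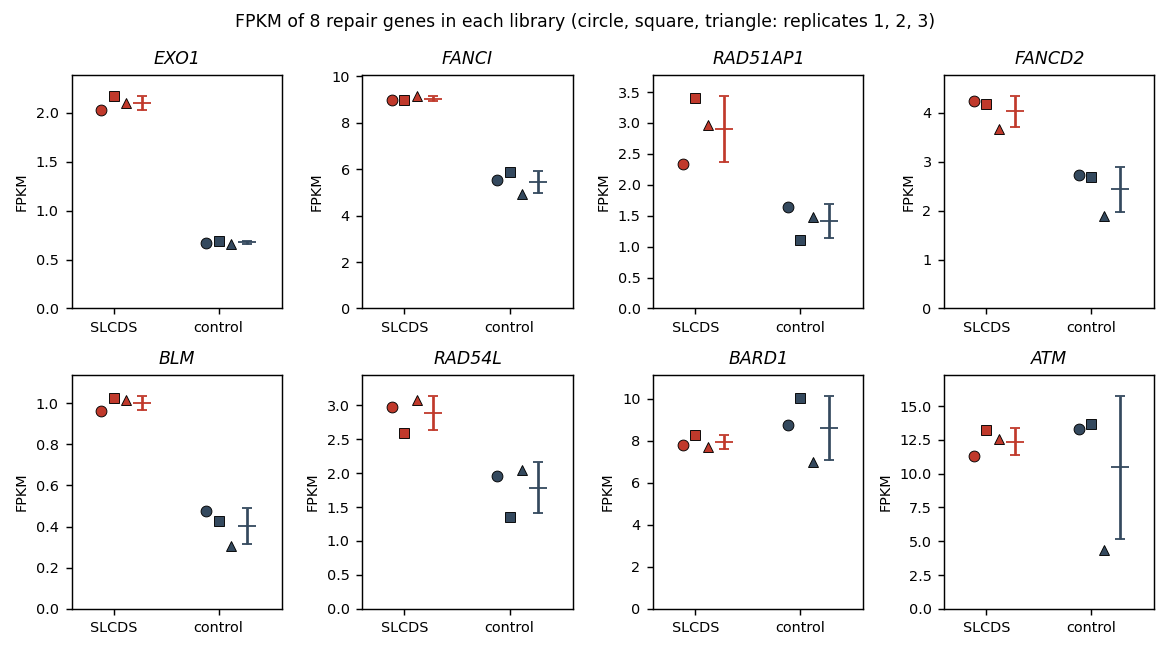
FPKM of 8 repair genes in each library, with SLCDS on the left and control on the right of each panel. Symbols are replicates 1 to 3 and the bars give the mean ± SD of 3 libraries. EXO1, FANCI, RAD51AP1, FANCD2, BLM and RAD54L show no overlap between the groups, and ATM has 1 low library, control replicate 3, at 4.36 FPKM.

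EXO1 encodes an exonuclease that resects DNA ends in recombination and removes strands in mismatch repair. Its FPKM was 2.03, 2.17 and 2.10 in SLCDS replicates 1 to 3 and 0.672, 0.689 and 0.661 in control replicates 1 to 3. The groups were far apart and both were tight, and control replicate 3 lay with the other controls. The mean was 2.10 ± 0.0716 FPKM in SLCDS against 0.674 ± 0.0142 FPKM in control (SD, n = 3 each), a ratio of 3.11. Its log2 fold change on the FPKM + 1 scale was 0.89 (SE 0.07; limma, adjusted p = 0.000733), the highest of the 30 tested repair genes. Because the added 1 shrinks the change of low genes, fragment counts were also read back from the FPKM values. They were 131, 138 and 138 fragments in SLCDS and 42, 43 and 43 in control, and limma-voom on such counts gave a log2 fold change of 1.63 (adjusted p = 0.00109). EXO1 rose in each of the 22 other settings in which it could be tested, with a log2 fold change of 0.88 without control replicate 3 (limma, adjusted p = 3.23e-05).

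FANCI encodes the partner of FANCD2 in the pair of proteins that the Fanconi core ligase modifies. It stood at 8.99, 8.98 and 9.17 FPKM in SLCDS against 5.52, 5.87 and 4.95 FPKM in control. The SLCDS libraries were nearly equal and all above the highest control. The means were 9.05 ± 0.103 FPKM in SLCDS and 5.45 ± 0.464 in control (SD, n = 3 each), a ratio of 1.66. FANCI rose by 0.64 on the log2(FPKM + 1) scale (SE 0.08; limma, adjusted p = 0.00424), and rose in all 23 other settings. Without control replicate 3 the log2 fold change was 0.59 (limma, adjusted p = 6.01e-05).

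FANCD2 encodes the other protein of the pair, whose ubiquitinated form gathers at crosslinks. It had 4.24, 4.18 and 3.67 FPKM in SLCDS against 2.72, 2.68 and 1.89 FPKM in control. The groups did not overlap, and the lowest value was that of control replicate 3. FANCD2 averaged 4.03 ± 0.315 FPKM in SLCDS against 2.43 ± 0.468 FPKM in control (SD, n = 3 each), with a log2 fold change of 0.56 (SE 0.12; limma, adjusted p = 0.0374). This call was less steady than that of FANCI. It passed in 14 of 22 other settings, and leaving out SLCDS replicate 1, 2 or 3 or control replicate 1 or 2 gave limma adjusted p values of 0.177, 0.169, 0.103, 0.0615 and 0.0715. With control replicate 3 left out it rose by 0.44 (limma, adjusted p = 0.00222). The ratio of FANCD2 to FANCI, a comparison chosen after the values were seen, was 0.472, 0.465 and 0.40 in SLCDS and 0.494, 0.456 and 0.382 in control (exact permutation test, 2-sided, p = 1.0, where 0.1 is the smallest p that 3 against 3 allows). The groups overlapped in this ratio, while each gene by itself was higher in SLCDS.

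RAD51AP1 encodes a DNA-binding protein that promotes strand invasion. Its FPKM was 2.34, 3.41 and 2.96 in SLCDS and 1.65, 1.11 and 1.47 in control. Relative to their means both groups varied more than for EXO1 or FANCI, but they did not overlap. The means were 2.90 ± 0.538 FPKM in SLCDS against 1.41 ± 0.274 FPKM in control (SD, n = 3 each), a ratio of 2.06, and the log2 fold change was 0.69 (SE 0.13; limma, adjusted p = 0.0251). With 85, 122 and 110 fragments in SLCDS and 58, 39 and 54 in control, it rests on fewer fragments than FANCI, which had 710 to 751 in SLCDS and 401 to 456 in control. RAD51AP1 passed in 17 of 22 other settings. It missed the threshold without SLCDS replicate 2 (limma, adjusted p = 0.110), SLCDS replicate 3 (0.119) or control replicate 2 (0.0772), with a replicate block (0.0665), and with no filter and without control replicate 3 (0.0520). With the filter and without control replicate 3 it rose by 0.71 (limma, adjusted p = 0.00285).

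RAD54L encodes a DNA translocase that works during strand invasion. It stood at 2.97, 2.60 and 3.08 FPKM in SLCDS against 1.95, 1.35 and 2.05 FPKM in control. The groups did not overlap, yet the gene missed the threshold (log2 fold change 0.49, SE 0.12; limma, adjusted p = 0.0610). It passed in 7 of 22 other settings, and without control replicate 3 its log2 fold change was 0.56 (limma, adjusted p = 0.00379). RAD54B, the related translocase, averaged 1.57 ± 0.0528 FPKM in SLCDS against 1.68 ± 0.131 FPKM in control (limma, adjusted p = 0.729). The ratio of RAD54L to RAD54B, also chosen after the values were seen, was 1.95, 1.6 and 1.98 in SLCDS and 1.27, 0.785 and 1.14 in control (exact permutation test, 2-sided, p = 0.1, the smallest possible).

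The other genes of this role gave no call over all libraries. XRCC2, which acts in filament assembly, had 2.49, 2.35 and 2.38 FPKM in SLCDS against 1.88, 1.95 and 1.17 FPKM in control, without overlap (limma, adjusted p = 0.169). Leaving out control replicate 3 gave a log2 fold change of 0.23 (limma, adjusted p = 0.0453). XRCC3 and RAD51C, which form a complex, overlapped between groups, with 4.94 ± 0.396 and 8.10 ± 0.822 FPKM in SLCDS against 4.46 ± 0.697 and 8.18 ± 0.793 FPKM in control. PALB2, which joins BRCA1 to BRCA2, averaged 3.23 ± 0.0917 FPKM in SLCDS against 3.49 ± 0.407 FPKM in control (SD, n = 3 each).

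BRCA1, the tumour suppressor that promotes resection, had 2.92, 3.41 and 2.91 FPKM in SLCDS against 2.75, 2.16 and 1.43 FPKM in control. The SLCDS libraries lay above all controls, but the controls were widely spread and the difference did not pass (log2 fold change 0.41; limma, adjusted p = 0.218). The ratio of means was 1.46 against the 3 controls and 1.26 against control replicates 1 and 2 (limma, adjusted p = 0.0856). BARD1 encodes the obligate partner of BRCA1 in its ubiquitin ligase and differed in its pattern. It had 7.81, 8.29 and 7.70 FPKM in SLCDS against 8.75, 10.03 and 6.997 FPKM in control, with overlap (log2 fold change -0.09; limma, adjusted p = 0.760). When control replicate 3 was left out, BARD1 was lower in SLCDS (log2 fold change -0.22; limma, adjusted p = 0.0403). The ratio of BRCA1 to BARD1, chosen after the values were seen, was 0.374, 0.412 and 0.378 in SLCDS and 0.314, 0.215 and 0.204 in control, without overlap (exact permutation test, 2-sided, p = 0.1, the smallest possible). BRIP1, a helicase that binds BRCA1, averaged 1.07 ± 0.140 FPKM in SLCDS against 0.858 ± 0.169 FPKM in control (limma, adjusted p = 0.453).

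In the Fanconi core complex none of the 8 tested genes passed in either direction over all libraries. Of all tested genes 4.28% were higher and 1.82% lower, and a list of 8 cannot be told apart from these shares. The summed FPKM of the core group, FANCB included, was 50.9 to 54.5 in SLCDS and 51.2 to 60.9 in control. FANCD2, FANCI and the nuclease scaffold SLX4 summed to 15.5 to 15.9 FPKM in SLCDS against 9.13 to 11.1 FPKM in control, although SLX4 itself overlapped between groups (2.64 ± 0.302 FPKM in SLCDS and 2.49 ± 0.188 in control). Of the core group UBE2T, the conjugating enzyme of the pathway, had the highest level in each SLCDS library and FANCG in each control library. UBE2T had 14.2, 13.6 and 16.0 FPKM in SLCDS against 12.8, 10.5 and 13.8 FPKM in control (limma, adjusted p = 0.347), and without control replicate 3 it was higher by 0.31 on the log2 scale (limma, adjusted p = 0.0257).

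FANCG, FANCF and FANCL were the only repair genes whose SLCDS libraries all lay below the controls. They are 3 of the 30 tested repair genes, where 13.6% of all tested genes were lower without overlap, so their number does not set the repair genes apart. FANCG, a scaffold of the core complex, had 13.1, 12.5 and 14.0 FPKM in SLCDS against 14.3, 14.2 and 18.5 FPKM in control (log2 fold change -0.22; limma, adjusted p = 0.363). FANCL, the catalytic subunit, averaged 9.82 ± 0.244 FPKM in SLCDS against 11.3 ± 1.04 FPKM in control, and FANCF, an adaptor, 2.74 ± 0.0944 in SLCDS against 3.13 ± 0.409 in control. The highest control value of each was in control replicate 3, and without it the log2 fold change of FANCG was -0.10 (limma, adjusted p = 0.218). FANCE averaged 6.55 ± 0.431 FPKM in SLCDS against 7.54 ± 0.732 in control, and FANCC 2.15 ± 0.167 in SLCDS against 2.06 ± 0.129 in control. FANCA averaged 1.55 ± 0.144 FPKM in SLCDS against 1.30 ± 0.0901 in control, and the translocase gene FANCM 1.24 ± 0.0662 in SLCDS against 1.175 ± 0.308 in control. None of these core genes passed.

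The 5 repair genes below the filter were tested with no filter and on fragment counts, and of these BLM and CLSPN rose in both with all libraries. BLM encodes the helicase mutated in Bloom syndrome, which dissolves joined DNA strands together with RMI1 and RMI2. BLM had 0.964, 1.03 and 1.01 FPKM in SLCDS against 0.473, 0.425 and 0.303 FPKM in control, or 82, 86 and 88 fragments in SLCDS and 39, 35 and 26 in control. The groups were well separated, with a ratio of means of 2.5. With no filter its log2 fold change was 0.52 (limma, adjusted p = 0.00561), and by limma-voom on fragments 1.34 (adjusted p = 0.00818). RMI1 averaged 1.26 ± 0.132 FPKM in SLCDS against 0.968 ± 0.0367 FPKM in control (limma, adjusted p = 0.224), and RMI2 1.12 ± 0.126 in SLCDS against 1.03 ± 0.338 in control.

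CLSPN encodes claspin, the adaptor through which ATR activates CHEK1 at stalled forks. It had 0.934, 1.15 and 0.972 FPKM in SLCDS against 0.707, 0.583 and 0.533 FPKM in control. The groups did not overlap, and it rose by limma-voom on fragments (log2 fold change 0.75, adjusted p = 0.0307) and with no filter (0.33, limma, adjusted p = 0.0439), but not with no filter and without control replicate 3 (limma, adjusted p = 0.0519). BRCA2, which acts in filament assembly, had 0.910, 0.904 and 0.931 FPKM in SLCDS against 0.667, 0.633 and 0.340 FPKM in control. Its adjusted p by limma-voom was 0.0966 with all libraries and 0.00784 without control replicate 3. POLQ, the polymerase of theta-mediated end joining, had 0.618, 0.814 and 1.02 FPKM in SLCDS against 0.449, 0.548 and 0.249 FPKM in control, with limma-voom adjusted p values of 0.111 with all libraries and 0.0181 without control replicate 3. For FANCB, a core complex gene, the values were 0.541, 0.518 and 0.296 FPKM in SLCDS against 0.327, 0.384 and 0.123 FPKM in control, with overlap.

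On fragment counts all 35 repair genes could be tested, since each had at least 15 fragments in every library. By limma-voom 6 of 35 rose and none fell, where 5.21% of 13200 tested genes were higher and 1.82% lower in SLCDS. BLM and CLSPN were added to the 4 genes named above. At an unadjusted p under 0.05 limma-voom gave 12 higher and 0 lower, against 12.3% and 7.42% of all its tested genes. On log2(FPKM + 1) with no filter 5 of 35 rose and none fell, against 3.71% and 1.24% of all 16832 genes, and without control replicate 3 this was 6 and 0, against 8.5% and 5.63%. FANCD2 was the gene of the 4 that no longer passed with no filter and all libraries (limma, adjusted p = 0.0633). When control replicate 3 was left out, limma-voom placed 10 of 35 higher and 1 lower, and the background itself was then 16.2% and 13.3%. The 10 were BLM, BRCA1, BRCA2, CLSPN, EXO1, FANCD2, FANCI, POLQ, RAD51AP1 and RAD54L, and the 1 was BARD1.

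The checkpoint kinases gave no called difference. ATM, the kinase that responds to DNA breaks, had 11.3, 13.3 and 12.6 FPKM in SLCDS against 13.3, 13.7 and 4.36 FPKM in control. A single library, control replicate 3, was low, and the log2 fold change of 0.36 (limma, adjusted p = 0.677) became -0.12 without it (adjusted p = 0.211). ATR, the kinase of stalled forks, stood at 6.67, 6.97 and 6.86 FPKM in SLCDS against 6.75, 6.98 and 4.32 FPKM in control, and its activator TOPBP1 at 7.99, 8.34 and 8.01 FPKM in SLCDS against 7.79, 7.31 and 4.55 FPKM in control. In both the low control was again replicate 3. CHEK1, the effector kinase of ATR, averaged 2.99 ± 0.106 FPKM in SLCDS against 2.96 ± 0.211 FPKM in control, with a log2 fold change of 0.01 and a 95% interval of -0.17 to 0.19. CHEK2, the effector of ATM, averaged 1.30 ± 0.246 FPKM in SLCDS against 1.03 ± 0.177 FPKM in control (limma, adjusted p = 0.459). MSH6, a mismatch sensor, averaged 10.6 ± 0.519 FPKM in SLCDS against 11.4 ± 0.482 FPKM in control (limma, adjusted p = 0.583).

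**Figure D2:**
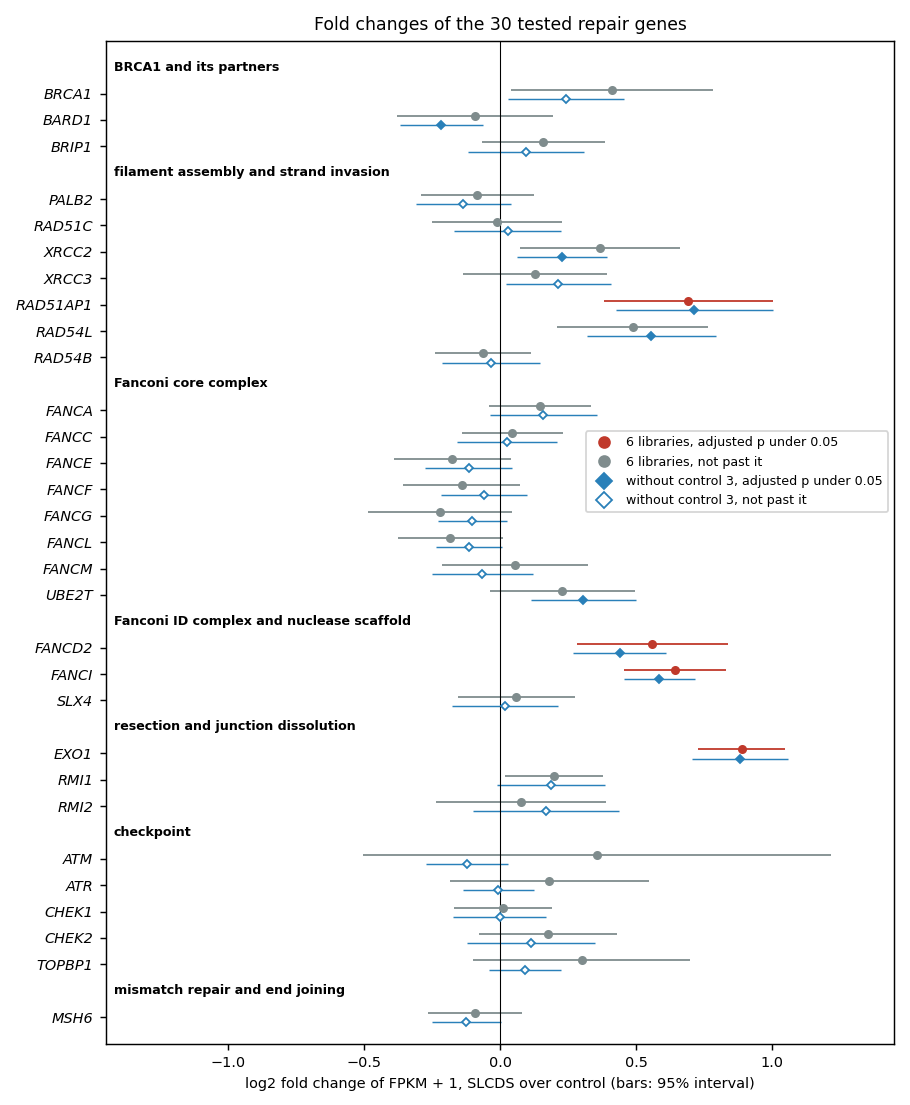
Log2 fold changes of FPKM + 1, SLCDS over control, for the 30 tested repair genes grouped by role, with 95% intervals from limma. Circles use all 6 libraries and diamonds leave out control replicate 3. EXO1, FANCI, RAD51AP1 and FANCD2 pass in both, and the wide interval of ATM narrows without control replicate 3.

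Across the repair genes the differences lay on both sides of 0. Of the 30 tested, 21 had a log2 fold change above 0 and 9 below 0, with a median of 0.14, against 0.00036 over all tested genes. Without control replicate 3 the median was 0.06, against 0.0016 over all tested genes, and 5 of the 30 (ATM, ATR, CHEK1, FANCM and RAD51C) changed sign. The FPKM ranges of SLCDS and control did not overlap for 14 genes higher and 3 genes lower in SLCDS, and overlapped for the remaining 18 of the 35. Among the 30 tested, 10 were higher and 3 lower without overlap, where 15.5% and 13.6% of all tested genes had such ranges. The summed FPKM of all 35 genes was 152, 158 and 159 in SLCDS and 147, 145 and 135 in control.

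**Figure D3:**
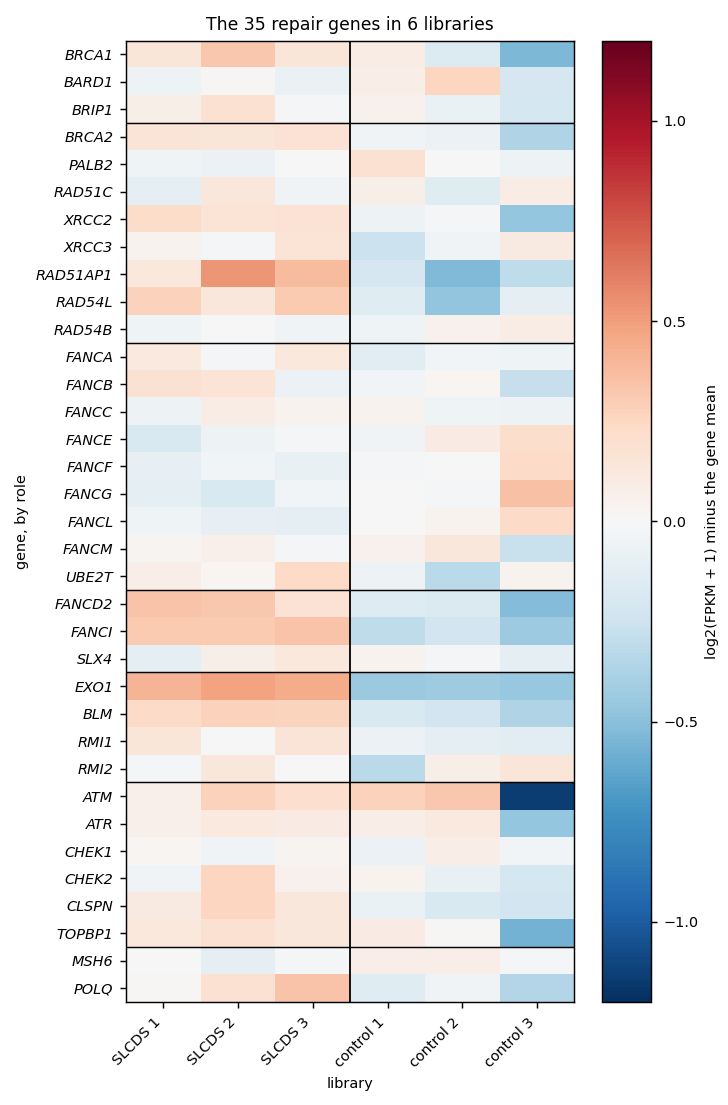
Log2(FPKM + 1) of the 35 repair genes in each library minus the gene's mean over 6 libraries, with SLCDS on the left, control on the right and lines between the 7 role groups. EXO1, FANCI, FANCD2, RAD51AP1 and BLM are high in all SLCDS libraries, and control replicate 3 is the lowest library for 19 of the 35 genes.

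Control replicate 3 departed from the other controls along transcript length. For 14 repair genes whose longest coding transcript exceeds 5000 nucleotides the median log2 ratio of control replicate 3 to the mean of control replicates 1 and 2 was -0.62, and 13 of the 14 were below 0. For the 21 shorter genes the median was 0.10, and 10 were below 0. Over the 35 genes, which share these libraries, the correlation of this ratio with length was r = -0.65 (Spearman's rho -0.71), and over 11273 tested genes with a length it was -0.69 (rho -0.72). ATM, with a transcript of 13147 nucleotides, was at a ratio of 0.323, while EXO1, with 3473, was at 0.971 and RAD51AP1, with 2163, at 1.07. FANCD2 (0.700), BRCA1 (0.582) and BRCA2 (0.524) were in between, so their ratios of SLCDS to control are smaller against control replicates 1 and 2 alone, at 1.49, 1.26 and 1.41. The difference between SLCDS and control replicates 1 and 2 had r = -0.06 (rho -0.04) with length over the 35 genes and r = -0.11 (rho -0.18) over the 11273.

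**Figure D4:**
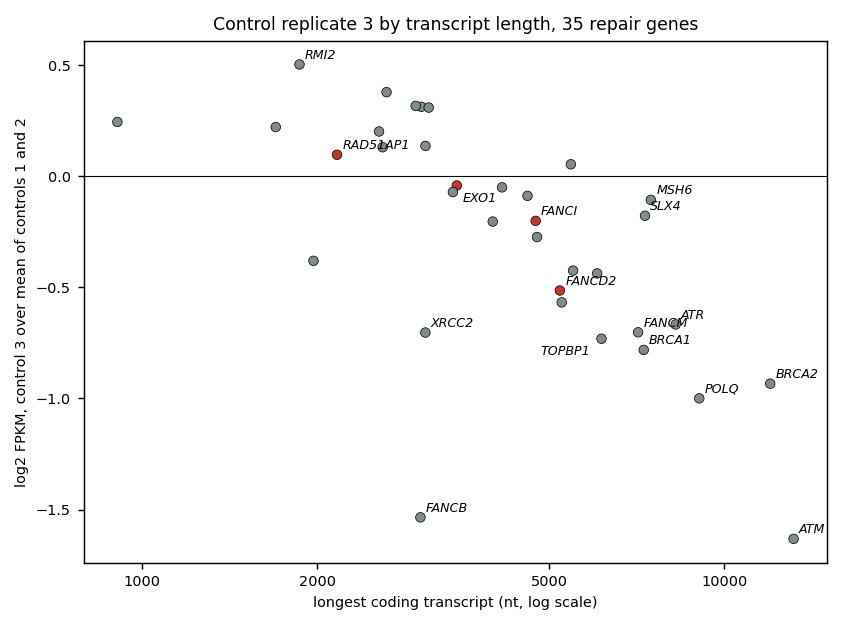
Log2 ratio of FPKM in control replicate 3 to the mean of control replicates 1 and 2 against the length of the longest coding transcript (log axis), for 35 repair genes. Red points are the 4 genes that rose in SLCDS, and genes above 5000 nucleotides lie mostly below 0.

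Without control replicate 3, 7 of the 30 tested repair genes rose and 1 fell by limma, where 16.0% of all tested genes were higher and 11.8% lower. RAD54L, UBE2T and XRCC2 joined the 4 genes that rose over all libraries, and BARD1 was the gene that fell. Among all settings besides the main fit, this one included, UBE2T passed in 1 of 23 and XRCC2 in 2 of 22. BARD1 passed, as lower, in 3 of 23. With each library's trend with length and GC content removed, 6 rose and 1 fell, against a background of 9.24% and 8.71%. BRCA1 and RAD54L joined the 4, and FANCG was the gene that fell. With these trends removed and control replicate 3 left out, 7 rose and 2 fell, BARD1 and FANCG, against 14.0% and 16.3% of all tested genes.

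Comparison lists of related genes are read against the same background, 4.28% higher and 1.82% lower with all libraries and 16.0% and 11.8% without control replicate 3. Of 33 other tested recombination genes 2 rose and none fell, and leaving out control replicate 3 gave 7 that rose and 4 that fell. RBBP8, which encodes the resection factor CtIP, was among those that rose (6.11 ± 0.325 FPKM in SLCDS against 4.46 ± 0.271 FPKM in control; limma, adjusted p = 0.0345). Of 14 other Fanconi genes 2 rose, UHRF1, a sensor of crosslinks and hemimethylated DNA (2.25 ± 0.119 FPKM in SLCDS against 0.922 ± 0.125 FPKM in control; limma, adjusted p = 0.00251), and the ubiquitin ligase gene RFWD3 (5.55 ± 0.179 FPKM in SLCDS, 3.85 ± 0.531 in control; limma, adjusted p = 0.0463). Leaving out control replicate 3 gave 3 other Fanconi genes that rose and 1 that fell. The calls of RBBP8 and RFWD3 were among the less steady ones, passing in 14 of 23 and in 11 of 22 other settings.

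In other repair pathways 0 to 2 genes of each list were called with all libraries. Of 20 other checkpoint genes none passed in either direction. The most abundant of them were BABAM1 (59.7 ± 2.31 FPKM in SLCDS against 66.6 ± 14.8 FPKM in control) and the histone gene H2AX (30.9 ± 0.639 FPKM in SLCDS, 25.3 ± 6.70 in control). H2AX had a limma adjusted p of 0.374 over all libraries and was higher without control replicate 3 (limma, adjusted p = 2.26e-05). It passed in 3 of 20 other settings, that one included. In mismatch repair 1 of 6 rose, MLH3 (1.08 ± 0.0767 FPKM in SLCDS against 0.639 ± 0.0585 FPKM in control; limma, adjusted p = 0.0400), which passed in 13 of 22 other settings. None of 14 end joining genes passed, and the Ku genes XRCC6 (87.6 ± 1.40 FPKM in SLCDS against 93.0 ± 11.8 FPKM in control) and XRCC5 (62.9 ± 0.917 FPKM in SLCDS, 63.4 ± 1.48 in control) were the most abundant of them. In nucleotide excision repair 1 of 17 fell, GTF2H4, a TFIIH subunit gene (65.8 ± 1.21 FPKM in SLCDS against 88.0 ± 5.52 FPKM in control; limma, adjusted p = 0.0199). In base excision repair 2 of 22 rose, the flap endonuclease gene FEN1 (11.4 ± 0.656 FPKM in SLCDS, 7.77 ± 1.13 in control; limma, adjusted p = 0.0360) and the glycosylase gene NEIL3 (1.496 ± 0.126 FPKM in SLCDS, 0.682 ± 0.0520 in control; limma, adjusted p = 0.00583). Of 15 genes of the p53 damage response 2 rose, CDKN1A (17.2 ± 0.734 FPKM in SLCDS against 9.92 ± 1.08 FPKM in control; limma, adjusted p = 0.00393) and GADD45A (28.2 ± 1.97 FPKM in SLCDS, 14.9 ± 1.90 in control; limma, adjusted p = 0.00380). With control replicate 3 left out, the p53 list had 7 higher and 1 lower. The lists of other checkpoint genes and of base excision repair then had 2 higher and 1 lower and 3 higher and 1 lower, and end joining had 2 higher and 0 lower. Mismatch repair then had 1 higher and 0 lower and nucleotide excision repair 1 higher and 1 lower.

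Among cell cycle genes most of the G2/M list and fewer of the S phase list rose in SLCDS. In the S phase list 9 of 32 tested genes rose and none fell, with a median log2 fold change of 0.22, and in the G2/M list 24 of 33 rose and none fell, with a median of 0.59, where 4.28% of all tested genes were higher. Without control replicate 3 these counts were 18 of 32 and 29 of 33, again with none that fell, where 16.0% were higher. The summed FPKM of S phase genes was 279 to 295 in SLCDS and 227 to 258 in control, and that of G2/M genes 220 to 231 in SLCDS and 140 to 149 in control. MKI67, the Ki-67 antigen gene, stood at 6.71 ± 0.412 FPKM in SLCDS against 2.27 ± 0.748 FPKM in control (limma, adjusted p = 0.00593). CDC6, which licenses replication origins, had 4.01 ± 0.254 FPKM in SLCDS against 1.53 ± 0.0743 FPKM in control, and FOXM1, a factor of G2/M genes, 5.98 ± 0.348 in SLCDS against 2.74 ± 0.319 in control. Of 17 genes for E2F and DREAM regulators 3 rose, E2F1 (11.8 ± 0.175 FPKM in SLCDS against 6.86 ± 0.783 FPKM in control), E2F2 (1.12 ± 0.125 FPKM in SLCDS, 0.324 ± 0.0627 in control) and E2F7 (2.87 ± 0.404 FPKM in SLCDS, 1.46 ± 0.425 in control), with limma adjusted p values of 0.00433, 0.00366 and 0.0448. E2F7 passed in 12 of 22 other settings. The summed FPKM of this list had a median of 259.6 in SLCDS and 260.4 in control, with overlapping ranges, and without control replicate 3 it had 3 higher and 1 lower. UHRF1, MLH3, NEIL3 and E2F2, like EXO1, were below 1 FPKM in every control library and entered the test through SLCDS. The part of these cycle genes in the results on repair genes was not tested.

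**Figure D5:**
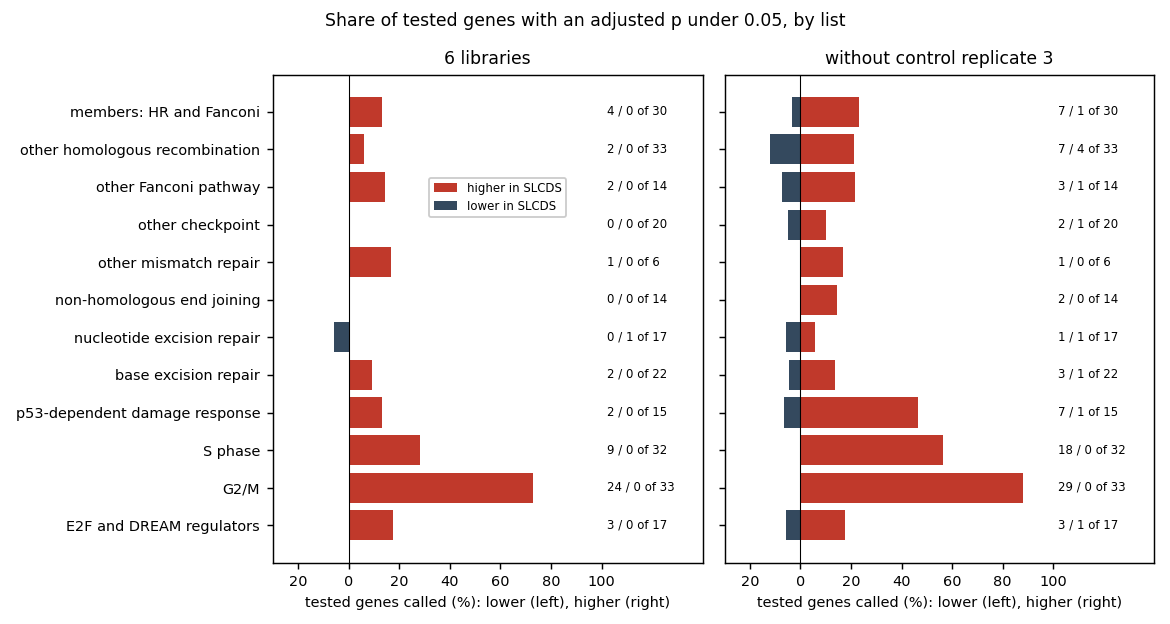
Percent of tested genes in each list with an adjusted p under 0.05 by limma, higher in SLCDS to the right and lower to the left, with all libraries and without control replicate 3. The numbers give genes higher and lower of those tested, and G2/M has the most higher genes, at 24 of 33, against 4 of 30 for the repair genes described here.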

How the data were processed

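Per the labels' protocols, TRIzol was used to extract total RNA, which was made into sequencing libraries (VAHTS Universal V6). The authors deposited FPKM per gene symbol and library, on a linear scale, with 1 file per library and no pooling. The sources used here name no aligner, counter or annotation. Mouse builds, GRCm38 and mm10, stand in the submitters' processing notes, whereas the labels and gene symbols are human, so the genome used for alignment is open.

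Groups came from the sample titles. Values were tested as log2(FPKM + 1), a scale that understates the change of low genes, for the 11506 of 16832 genes that reached an FPKM of 1 in 3 libraries or more, with limma 3.58.1 in R 4.3.3, a mean-variance trend, 2-sided tests and Benjamini-Hochberg adjustment. Fragment counts were recovered from the FPKM steps for all 15309 genes above 0 in 3 or more libraries (100.0%, tolerance 0.01). A factor common to all 6 counts of a gene cannot be seen in this way. Depth was set by 404 of 669 single-transcript genes. These counts, at least 10 in 3 or more libraries, were tested with limma-voom as an alternative added after the data were seen, with control replicate 3 also left out there, with no filter and with trends removed. Replicate libraries were checked for duplicates: the median chi-square over 10491 genes reached 15.3 and 16.0 when control replicate 3 was in the pair and lay between 1.03 and 1.31 otherwise, so none were merged.

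The repair genes, their role groups and the comparison lists were chosen with earlier results of these data known. Named were all 35 repair genes, MKI67 and, from each comparison list, up to 4 called genes with the smallest adjusted p, or the 2 most abundant if fewer than 2 were called, of which the text gives a selection. A few of the genes so picked are not reported here but stay in the counts. Transcript lengths and GC content came from GENCODE release 29 and promoter windows from RefSeq. Alternatives were pseudocounts of 0.1 and 0.5, no filter, a mean FPKM of at least 5, 4 scalings, 2 variance priors, removal of length and GC trends (splines with 4 degrees of freedom), a replicate block and each library left out. Python 3.11.15 with numpy 2.4.6, pandas 2.3.3 and matplotlib 3.10.9 served for the other steps.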

Additional observations from a re-analysis of the deposited data

How the results depend on the processing

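No named gene changed its direction of call under any alternative, and EXO1 and FANCI rose in every setting that tested them. The count over all libraries was 4 of 30 repair genes higher and 0 lower. With a mean FPKM of at least 5, 1 of 11 tested was higher, against 196 of all 8394 genes. EXO1, RAD51AP1 and FANCD2 lay below that mean and were not tested there. With length and GC trends removed 6 of 30 repair genes were higher and 1 lower. With those trends removed and without control replicate 3 the count became 7 higher and 2 lower of 30, against 14.0% and 16.3% of all tested genes. By limma-voom without control replicate 3 it was 10 higher and 1 lower of 35, against 16.2% and 13.3%. Leaving out each library in turn gave 2 to 7 higher and 0 to 1 lower. The 7 and the 1 came without control replicate 3, where 16.0% of all tested genes were higher and 11.8% lower. The 2 came without SLCDS replicate 2, SLCDS replicate 3 or control replicate 2, where 214, 219 and 310 of all 11506 genes were higher. The median log2 fold change of 0.14 was 0.19 with a pseudocount of 0.1 and 0.061 with quantile normalization. Over the 11 repair genes with a mean FPKM of at least 5 it was -0.013, against -0.013 over all genes tested there. With trends removed it was 0.083 (also with the replicate block), and 0.060 when control replicate 3 was left out as well. By limma-voom, over 35 genes, it was 0.25, and 0.20 without control replicate 3. With each library left out it was 0.060 to 0.14.

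Over all genes the counts of 492 higher and 209 lower became 196 and 128 with a mean FPKM of at least 5, 1042 and 982 with trends removed, 829 and 724 with trends removed and the replicate block, 2144 and 1755 with limma-voom without control replicate 3, 1431 and 947 with no filter and without control replicate 3, and 1581 and 1835 with trends removed and without control replicate 3. Quantile normalization gave 324 lower. Leaving out each library gave 210 to 1838 higher and 66 to 1353 lower, the most without control replicate 3.

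Same-numbered libraries correlated in their deviations at -0.33, 0.36 and 0.07, so the replicate numbers were not taken as pairs. With a replicate block 3 repair genes were higher and 0 lower, RAD51AP1 no longer passing, and 346 genes were higher and 109 lower. Equal FPKM sums also left 3 repair genes higher, FANCD2 no longer passing. The cause of these shifts was not tested. Repair genes had 15 to 2594 fragments in a library, with a median of 208.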
